A study of Mus musculus with 23 samples.

Results

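Mouse embryos that carry 1 functional copy of p53 were set against embryos that carry both, at a bath temperature that served as the control of a heat experiment. The comparison takes the 4 arrays labelled p53 +/- Control (replicates A to D) and the 4 labelled p53 +/+ Control, which are 8 of the 23 arrays measured, and all probes with at least 3 values on each side, 24147 of the 36227 on the array. Each array read the RNA of 1 pool of 3 to 7 whole day 8.5 embryos of the same genotype from matings of p53 heterozygous mice, after 10 minutes in a water bath at 38 °C. The p53 allele is germline, so every tissue of an embryo and its membranes carries it, and the mothers were heterozygous in all groups. 4 pools of p53 -/- (null) embryos from the same bath, and 11 pools from a 43 °C bath (4 heterozygous, 3 null and 4 wildtype), are used beside them. In whole-embryo pools, fewer cells of a type and less RNA per cell cannot be told apart.

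p53 (gene symbol Trp53) is a transcription factor that stress stabilizes and that switches on genes for cell cycle arrest, apoptosis and DNA repair. It binds DNA as a tetramer. p53 also keeps a low activity in embryos without stress, and its inhibitor Mdm2 is both its target and its main brake. Null mice can form embryos, and some of them, mostly females, fail to close the anterior neural tube. No probe was named Trp53, so p53 RNA is not among the values given and the genotypes are as labelled.

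The results turn on 3 genes, whose promoter windows are shown because p53 binds DNA directly: Dennd5b, whose protein belongs to the DENN family that activates Rab GTPases of membrane traffic; Ccng1, the cyclin G1 gene; and Cdkn1a, the gene of the cyclin-dependent kinase inhibitor p21. Ccng1 and Cdkn1a are textbook p53 targets. Each window runs 5′ to 3′ on the gene's strand from 250 bases before to 50 bases after an annotated start (RefSeq, build GRCm38.p6), and capitals mark matches to the consensus of the p53 decamer, the repeat unit of p53 response elements. The consensus reads the same on both strands, and 8.36% of all 32851 windows hold at least 1 match.
Dennd5b, chr6:149101631-149101930, minus strand: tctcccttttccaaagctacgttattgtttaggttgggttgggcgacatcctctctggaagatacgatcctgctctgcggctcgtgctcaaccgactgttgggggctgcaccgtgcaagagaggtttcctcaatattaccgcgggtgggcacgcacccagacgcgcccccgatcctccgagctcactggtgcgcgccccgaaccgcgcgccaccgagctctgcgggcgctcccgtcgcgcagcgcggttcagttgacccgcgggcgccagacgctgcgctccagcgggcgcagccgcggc
Ccng1, chr11:40755237-40755536, minus strand: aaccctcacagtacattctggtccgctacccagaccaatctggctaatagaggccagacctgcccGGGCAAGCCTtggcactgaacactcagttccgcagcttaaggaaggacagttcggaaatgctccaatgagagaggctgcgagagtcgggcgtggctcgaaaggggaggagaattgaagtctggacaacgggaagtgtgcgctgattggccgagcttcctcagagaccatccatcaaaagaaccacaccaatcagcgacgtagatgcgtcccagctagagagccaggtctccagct
Cdkn1a, upstream start, chr17:29090729-29091028, plus strand: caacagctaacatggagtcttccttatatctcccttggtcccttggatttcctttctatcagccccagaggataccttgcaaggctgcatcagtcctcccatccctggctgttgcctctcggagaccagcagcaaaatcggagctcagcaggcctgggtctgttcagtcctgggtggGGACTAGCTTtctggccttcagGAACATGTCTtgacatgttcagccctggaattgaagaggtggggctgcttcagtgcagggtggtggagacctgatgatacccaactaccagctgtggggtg
Cdkn1a, downstream start, chr17:29093519-29093818, plus strand: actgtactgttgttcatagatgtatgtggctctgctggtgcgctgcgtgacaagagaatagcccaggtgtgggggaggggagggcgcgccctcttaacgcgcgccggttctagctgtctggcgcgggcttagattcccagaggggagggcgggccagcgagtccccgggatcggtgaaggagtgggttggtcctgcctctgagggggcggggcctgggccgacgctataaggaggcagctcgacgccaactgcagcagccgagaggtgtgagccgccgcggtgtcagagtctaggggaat
The Ccng1 window held 1 match, at bases 66 to 75 of the window. The upstream Cdkn1a window held 2, at bases 178 to 187 and 200 to 209, while 0.359% of all windows held 2 or more. The Dennd5b window and the downstream Cdkn1a window held 0 matches, which says only that these letters are not in those 300 bases.

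The 4 heterozygous pools did not form a tight group. Over the 18835 probes with a value on all 12 control arrays, heterozygous arrays C and D had a mean Pearson r of 0.991 and 0.9904 with the null arrays and of 0.9802 and 0.9835 with the wildtype arrays. Arrays A and B had 0.9735 and 0.9682 with the null arrays and 0.9903 and 0.9886 with the wildtype arrays. Thus C and D lay nearer the null pools and A and B nearer the wildtype pools. The median SD of log2 intensity per probe was 0.1889 over the heterozygous pools, 0.1314 over the null pools and 0.1407 over the wildtype pools. The authors' columns differed along with this. Heterozygous A and B had 8508 and 7576 empty cells and highest values of 209.3 and 181.5, against 11666 and 11532 empty cells and highest values of 327.6 and 328.6 in C and D. Among the wildtype arrays, A resembled heterozygous A and B, with 8874 empty cells and a highest value of 192.8, while B, C and D had 11527, 11610 and 10291 empty cells. The part of these differences in the results was not tested. Values are therefore given pool by pool. Results that rest on C and D are also given without them, and where it matters within arrays of like empty-cell counts: C and D against wildtype B, C and D (over 9000 empty cells), and A and B against wildtype A (under 9000). These sets were chosen after the data were seen, so p-values within them are descriptions only.

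**Figure D1:**
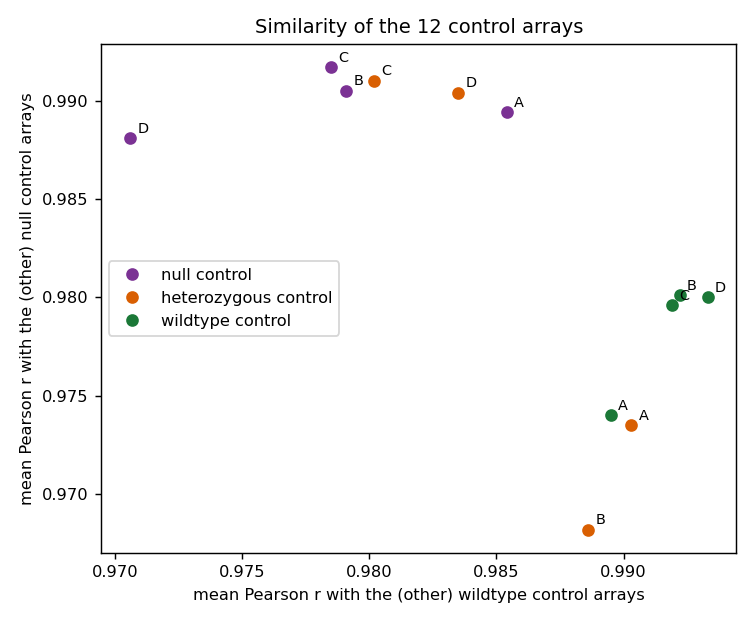
Mean Pearson r of each control array with the wildtype arrays (x axis, leaving out the array itself) and with the null arrays (y axis), over 18835 probes. Points are arrays, letters are replicates and colours are genotypes. Heterozygous C and D lie near the null arrays and heterozygous A and B near wildtype A.

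At the control temperature, few transcripts differed between heterozygous and wildtype embryos by more than the spread between pools. That spread, and the SEs given below, were estimated per probe from all 23 arrays. Of 24147 probes tested, 1 passed an adjusted p of 0.05, which is 0.00414% (limma, Benjamini-Hochberg over all probes). The count was 0 in fits on the 12 control arrays or the 8 compared arrays alone, and 25 (12 higher, 13 lower) among arrays with over 9000 empty cells. The arrays with under 9000 hold 1 wildtype pool, too few for a count. At an unadjusted p under 0.05 there were 1386 probes, or 5.74%, of which 830 (3.44%) were higher and 556 (2.3%) lower in heterozygous pools. The median absolute difference was 0.11 on the log2 scale, against a median SE of 0.14, and 99% of probes differed by less than 0.58. The null pools, set against the same 4 wildtype arrays, had 1780 of 24103 probes past the adjusted threshold, or 7.38%, and against the heterozygous pools 10, or 0.0415%. Among the heated pools, the heterozygous against wildtype comparison called 23 probes, or 0.0952%. The difference between the heat and control comparisons was past the adjusted threshold for 0 of 24147 probes, with 1422 at an unadjusted p under 0.05, or 5.89%.

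**Figure D2:**
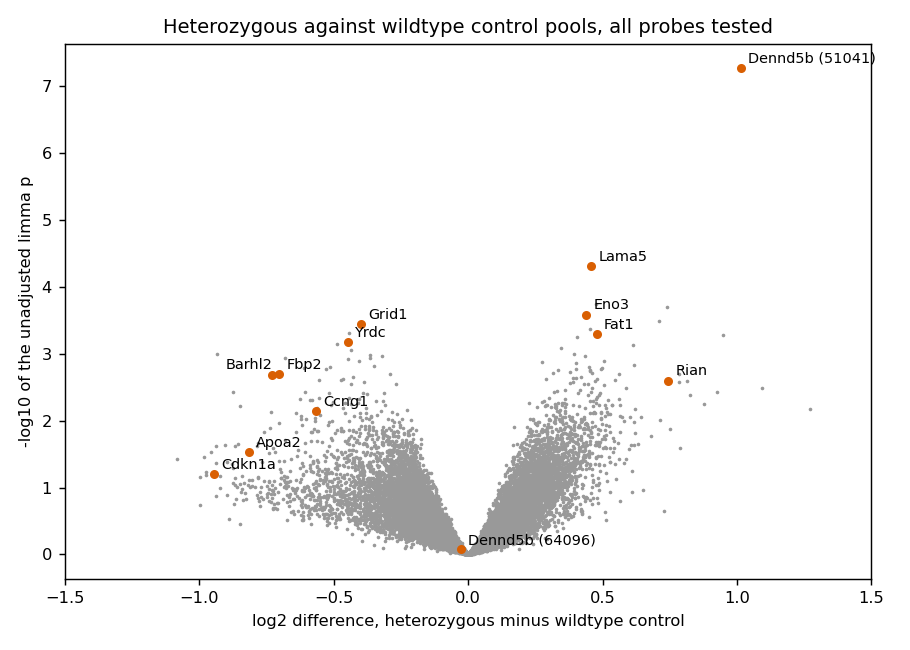
Each grey point is 1 of the 24147 probes tested, by its log2 difference (heterozygous minus wildtype control, x axis) and the -log10 of its unadjusted limma p (y axis). Orange points are named genes. Dennd5b, at a difference of 1.01, stands alone at the top, and its other probe (64096) lies at the bottom near 0.

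The probe past the threshold was Dennd5b probe 51041 (chromosome 6). Its intensity, on the relative scale of the quantile-normalized arrays, was 4.13, 6.66, 5.69 and 5.97 in heterozygous pools A to D, 10.7, 10.5, 9.07 and 8.93 in null pools, and 2.39, 2.74, 2.79 and 3.07 in wildtype pools. The 3 genotypes did not overlap, and all heterozygous pools, A and B as well as C and D, lay between the null and wildtype ranges. Dennd5b rose by 1.01 ± 0.13 on the log2 scale (SE, n = 4 pools each, 95% interval 0.75 to 1.27, limma adjusted p = 0.00129).

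The heated pools, which share no array with this comparison, had the same order. Dennd5b probe 51041 had 7.35, 8.44, 7.84 and 7.26 in heterozygous pools, 9.85, 11.2 and 11.5 in null pools, and 2.89, 2.80, 3.26 and 3.70 in wildtype pools. It was 1.29 ± 0.13 higher in heterozygous than in wildtype heated pools (log2, SE, n = 4 each, limma adjusted p = 1.8e-05). The difference between the 2 baths, 0.28 with a 95% interval from -0.09 to 0.65, did not pass the threshold (limma adjusted p = 0.91).

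The other Dennd5b probe gave no such pattern. Probe 64096 had 10.6, 10.6, 8.13 and 6.96 in heterozygous pools, and 10.0, 8.72 and 8.61 in wildtype pools A, C and D, with wildtype B empty. The ranges overlapped, and the log2 difference was -0.03 (95% interval -0.29 to 0.24, limma adjusted p = 0.987). The position of either probe in the gene was not analysed here, so which transcript of Dennd5b each probe reads was not tested. The call of probe 51041 also depended on the arrays in the fit: its difference was 1.03 in fits on the 12 control arrays (limma adjusted p = 0.0617) and on the 8 compared arrays (limma adjusted p = 0.741). Without heterozygous C and D the difference was 0.93 (limma adjusted p = 0.0947). Among the arrays with over 9000 empty cells it was 1.02 (limma adjusted p = 0.000667). Among those with under 9000, with 2 heterozygous pools and 1 wildtype pool, it was 1.13, in a setting too small for a test.

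Ccng1 was the textbook target with the clearest step between genotypes, though it did not pass the adjusted threshold. Its intensity was 2.95, 2.19, 2.95 and 2.74 in heterozygous pools, 1.58, 1.25, 1.49 and 1.41 in null pools, and 3.49, 4.32, 4.08 and 4.05 in wildtype pools. Every heterozygous pool lay below every wildtype pool and above every null pool. The heterozygous minus wildtype difference was -0.57 ± 0.19 (log2, SE, n = 4 each, 95% interval -0.96 to -0.17, limma adjusted p = 0.841). Without heterozygous C and D it was -0.64, among the arrays with over 9000 empty cells -0.55, and among those with under 9000 -0.46. Heated pools had 7.24, 6.26, 6.90 and 7.63 in heterozygous embryos, 3.02, 1.24 and 1.39 in null embryos, and 11.6, 11.2, 14.2 and 9.42 in wildtype embryos. The order was again free of overlap, with a heterozygous minus wildtype difference of -0.72 ± 0.19 (log2, SE, n = 4 each, limma adjusted p = 0.15).

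Cdkn1a, by contrast, split the heterozygous pools in pairs. Its intensity was 5.41, 5.25, 1.28 and 1.45 in heterozygous pools A to D, 1.44, 1.20, 1.47 and 1.07 in null pools, and 6.08, 4.54, 5.60 and 4.69 in wildtype pools. Pools A and B lay inside the wildtype range and pools C and D inside the null range. The mean difference of -0.95 ± 0.48 (log2, SE, n = 4 each, limma adjusted p = 0.841) is therefore not the level of any heterozygous pool. It was 0.04 without C and D. Among the arrays with over 9000 empty cells it was -1.84 (limma adjusted p = 0.15), and among those with under 9000 -0.19. After heat Cdkn1a had 5.24, 4.96, 5.49 and 1.92 in heterozygous pools, 3.93, 4.65 and 1.23 in null pools, and 34.1, 9.85, 34.2 and 22.1 in wildtype pools. There all heterozygous pools lay below all wildtype pools, and the difference was -2.47 ± 0.48 (log2, SE, n = 4 each, limma adjusted p = 0.0442).

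**Figure D3:**
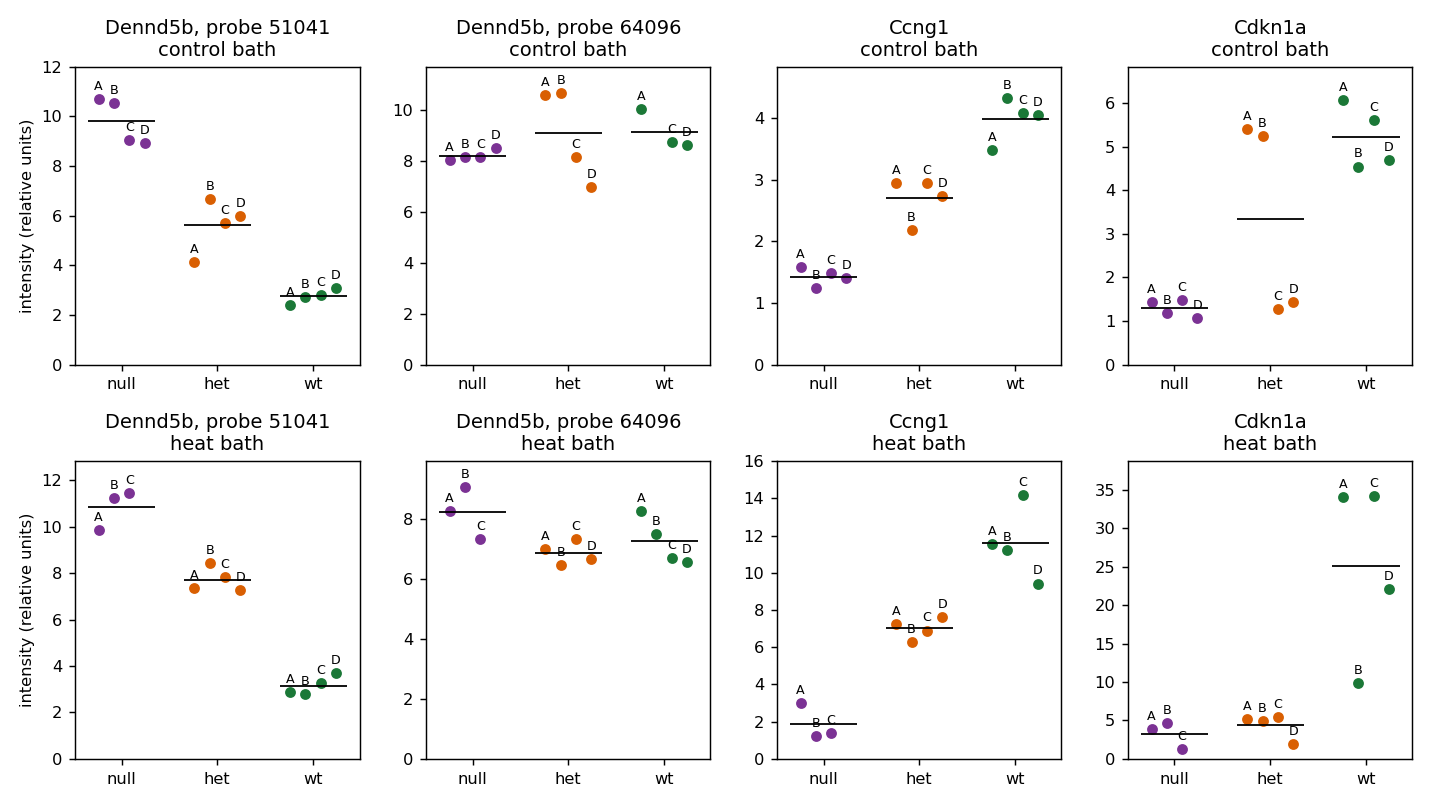
Intensity (y axis, linear, relative units) of 4 probes in null, heterozygous (het) and wildtype (wt) pools, in the control bath (top) and the heat bath (bottom). Points are pools with their replicate letters, and lines are group means. Dennd5b probe 51041 and Ccng1 form 3 steps in both baths, while Cdkn1a in the control bath splits the heterozygous pools A and B from C and D.

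The split of Cdkn1a was shared by other transcripts. Besides Dennd5b, 3 probes differed by more than 1 in size, Ezh1, Ddx6 and Guk1, named here after their values were seen, and Ezh1 and Ddx6 split the pools. Ezh1, which encodes a histone H3 lysine methyltransferase of Polycomb complexes, had 2.22, 2.10, 7.79 and 8.17 in heterozygous pools, 6.79, 7.81, 7.80 and 7.95 in null pools, and 2.22, 1.99, 1.58 and 2.04 in wildtype pools. Ddx6, an RNA helicase of mRNA decay and storage, ran the other way, with 5.73, 5.49, 0.949 and 1.23 in heterozygous pools, 1.47, 1.33, 1.13 and 0.924 in null pools, and 5.21, 5.35, 5.38 and 4.91 in wildtype pools. In both genes the values of heterozygous C and D lay with the null pools, and those of A and B lay near or above the wildtype pools. Their differences were 1.09 for Ezh1 and -1.08 for Ddx6, each with a limma adjusted p of 0.841. Without C and D they were 0.15 and 0.11. Among the arrays with over 9000 empty cells the differences were 2.09 and -2.25, and among those with under 9000 -0.04 and 0.11. The genes and the sets of arrays were chosen after the values were seen, so no p-value is given for the sets. Otx2, a homeobox gene of forebrain and midbrain, had 10.1, 10.3, 6.53 and 6.58 in heterozygous pools, 7.75, 7.21, 6.34 and 4.28 in null pools, and 12.4, 11.4, 12.2 and 12.1 in wildtype pools. Here C and D lay in the null range and A and B between the null and wildtype ranges, and the difference was -0.56, or -0.24 without C and D. Guk1, the guanylate kinase gene, did not split in this way, with 7.86, 7.70, 6.78 and 10.7 in heterozygous pools and 5.40, 1.09, 5.29 and 4.13 in wildtype pools, where the low value of wildtype B widened the difference to 1.27 (limma adjusted p = 0.841).

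Over the array, few probes placed the 3 genotypes in order. Of 18835 probes with all 12 control values, 32 had every heterozygous pool between the null and the wildtype pools with no overlap, which is 0.17%; 18 of them were higher and 14 lower with fewer p53 copies. In the heated pools 29 of 23972 probes did so, or 0.121%. Dennd5b and Ccng1 were the 2 probes on both lists, each in the same direction, and no probe was on both in opposite directions. Others ordered in the control bath, picked after their values were seen for their known roles, were Bcl9, a co-activator of Wnt signalling (higher with fewer copies, 0.44), Nfatc3, a calcium-regulated transcription factor (lower, -0.41), Hmbox1, a homeobox protein (higher, 0.38) and Foxn3, a forkhead factor (lower, -0.37); the values are heterozygous minus wildtype log2 differences, and none passed the adjusted threshold.

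As a group, the p53 targets lay close to 0 at this temperature. Of 68 genes listed, 50 were tested and 0 passed the adjusted threshold, as did 0 of all 13588 genes, since each gene is counted by its brightest probe and that of Dennd5b is probe 64096. At an unadjusted limma p under 0.05, 1 was lower and 1 higher, against 2.08% lower and 3.95% higher of the 13588 genes tested. The lower was Ccng1. The higher was Notch1, the Notch receptor, with 0.33, but -0.48 in the heated pools (limma adjusted p = 0.135 after heat). In the control bath the median log2 difference was 0.03 for the targets and 0.02 for all genes. Of the 50, 19 were below 0, against 44.4% of all genes. Among members with 4 values on each side, 1 of 48 was lower and 1 of 48 higher without overlap, against 1.23% and 2.6% of 11837 genes.

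Among heated pools, 6 targets were lower in heterozygous than in wildtype pools past the adjusted threshold. These were Cdkn1a, Phlda3, Pmaip1, Zmat3, Slc19a2 and Dcxr, and their ranges overlapped in the control bath. Phlda3, an inhibitor of Akt signalling, had 2.99, 2.98, 3.54 and 2.88 in heterozygous control pools and 3.46, 2.83, 2.97 and 3.02 in wildtype control pools. The ranges overlapped, and the difference was 0.01 (95% interval -0.37 to 0.39). Pmaip1, the gene of the pro-apoptotic BH3 protein Noxa, had 5.20, 4.39, 4.47 and 4.18 in heterozygous and 4.61, 4.24, 4.54 and 4.41 in wildtype control pools, a difference of 0.03 (95% interval -0.50 to 0.56). After heat both genes were lower in heterozygous than in wildtype pools. The differences were -1.14 for Phlda3 (limma adjusted p = 0.01) and -1.41 for Pmaip1 (limma adjusted p = 0.0272). Zmat3, an RNA-binding p53 target, had 26.0, 26.4, 24.9 and 23.8 in heterozygous and 30.1, 25.6, 26.1 and 27.0 in wildtype control pools. Its difference was -0.10 in the control bath (95% interval -0.25 to 0.04) and -0.44 after heat (limma adjusted p = 0.01). Slc19a2, a thiamine transporter, and Dcxr, a carbonyl reductase, each differed by 0.02 in the control bath, and by -1.39 (limma adjusted p = 0.0315) and -0.74 (limma adjusted p = 0.0123) after heat. Those 6 of the 50 targets, with 0 higher, compare with 0.0736% lower and 0.0294% higher of all genes. For Phlda3 the difference between the baths was -1.15 (limma adjusted p = 0.352), and no target passed that test.

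The other targets of a panel of well-known ones did not pass the adjusted threshold either. Mdm2, which encodes the ubiquitin ligase that degrades p53, had a difference of 0.21 with a 95% interval from -0.42 to 0.85, from dim values of 0.595, 0.724 and 0.680 in heterozygous pools A to C and 0.661, 0.543, 0.537 and 0.561 in wildtype pools. Bbc3, the gene of the BH3 protein Puma, differed by -0.04 and Aen, an apoptosis-enhancing nuclease, by 0.01. Trp53inp1, which promotes p53-dependent apoptosis and autophagy, differed by -0.23, Sesn2, a stress-induced inhibitor of mTORC1, by -0.14, and Btg2, an antiproliferative co-regulator, by 0.20. Plk2, a polo-like kinase, had 11.6, 9.59, 11.9 and 11.9 in heterozygous pools and 9.84, 8.75, 9.32 and 9.51 in wildtype pools, a difference of 0.26. Perp, a desmosome protein that promotes apoptosis, had 1.58, 1.84, 1.99 and 2.08 in heterozygous pools and 1.54, 1.57, 1.66 and 1.66 in wildtype pools, a difference of 0.22. Each of these intervals held 0. In null control pools, 7 of the 50 targets were lower and 3 higher at the adjusted threshold, against 4.53% and 3.02% of all genes; that comparison uses the same wildtype arrays.

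**Figure D4:**
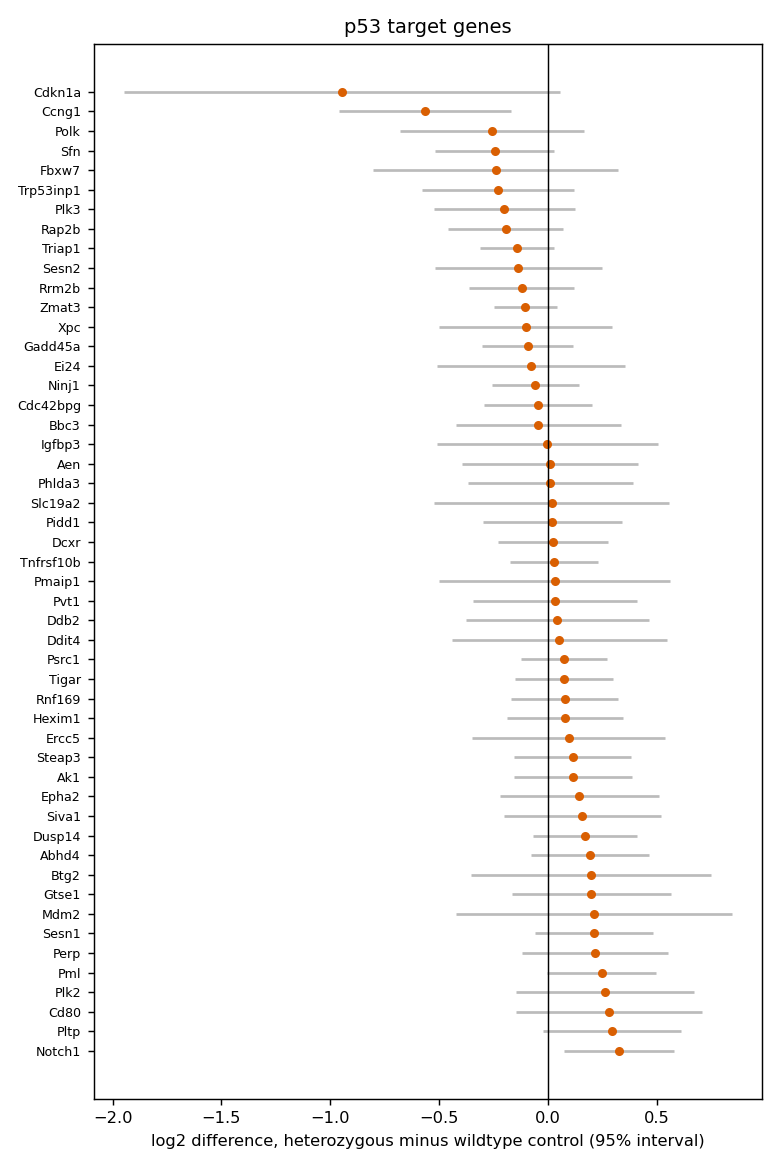
Log2 difference (heterozygous minus wildtype control, x axis) of the 50 p53 targets tested, with 95% intervals from limma; 1 row is 1 gene. Cdkn1a and Ccng1 lie farthest to the left and Notch1 farthest to the right, and most intervals span 0.

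The regulators of p53 had a median difference of 0.06 over 39 genes tested, against 0.02 for all genes, with 0 past the adjusted threshold. Trp63, the p53 relative needed for stratified epithelium, had 2.10, 2.28, 2.07 and 2.32 in heterozygous pools and 1.87, 1.70, 1.88 and 1.48 in wildtype pools. The pools did not overlap, and the difference was 0.34 (limma adjusted p = 0.841). Crebbp, an acetyltransferase co-activator of p53, differed by 0.25. Genes that start within 10 Mb of Trp53 on chromosome 11, the stretch most often inherited along with the p53 allele, had a median of 0.02 over 267 tested. Of the 229 of these with all 8 values, 5 were higher and 6 lower without overlap, against 2.6% and 1.23% of all genes. Slc46a1, the proton-coupled folate transporter gene, was among them with 3.73, 4.41, 4.11 and 4.22 in heterozygous and 3.27, 3.01, 3.33 and 3.62 in wildtype pools (0.32, limma adjusted p = 0.841). The highest difference of the stretch was that of Eno3, 0.44.

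Beyond the p53 pathway, the probes of smallest p whose pools did not overlap are given as values, since Dennd5b was the exception that passed. Lama5, the laminin alpha 5 chain of basement membranes, had 12.97, 10.94, 13.41 and 13.72 in heterozygous pools and 9.60, 8.71, 9.23 and 9.52 in wildtype pools. All heterozygous pools were higher, by 0.46 ± 0.09 (log2, SE, n = 4 each, limma adjusted p = 0.59). The limma adjusted p was 0.0487 among the arrays with over 9000 empty cells. It was 0.3 without C and D, where the difference was 0.36. Among the arrays with under 9000 the difference was 0.31. After heat the Lama5 ranges overlapped, with a difference of -0.07. Fat1, a giant protocadherin, had 47.3, 49.3, 40.05 and 35.5 in heterozygous pools and 33.7, 29.0, 28.0 and 32.2 in wildtype pools, a difference of 0.48 in the control bath and -0.18 after heat. Fras1, an extracellular matrix protein at the border of epithelium and mesenchyme, had 21.4, 17.4, 17.2 and 19.02 in heterozygous pools and 15.9, 12.7, 12.7 and 16.1 in wildtype pools (0.39). Eno3, the muscle enolase of glycolysis, which lies within 10 Mb of Trp53, had 43.8, 47.7, 37.1 and 41.3 in heterozygous pools and 34.9, 27.5, 30.8 and 32.0 in wildtype pools (0.44). The others on the higher side were 1700066M21Rik, Wdfy3 (an adaptor of selective autophagy), Bcl9, Barx1 (a homeobox gene of branchial arches and stomach) and Haghl, with differences from 0.40 to 0.71.

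On the lower side, Grid1, a glutamate receptor delta subunit, had 3.23, 2.77, 3.00 and 2.80 in heterozygous pools and 3.56, 3.79, 4.29 and 3.93 in wildtype pools, a difference of -0.40 (limma adjusted p = 0.841). Yrdc, an enzyme of threonylcarbamoyl tRNA modification, had 25.2, 23.1, 20.01 and 17.2 in heterozygous and 25.8, 32.9, 29.1 and 27.9 in wildtype pools (-0.45). Pools C and D were the lowest, and the Yrdc difference was -0.25 without them (limma adjusted p = 0.409). It was -0.69 among the arrays with over 9000 empty cells (limma adjusted p = 0.0314) and -0.09 among those with under 9000. Barhl2, a homeobox gene of the diencephalon, was dim, with 0.515, 0.398, 0.404 and 0.394 in heterozygous and 0.828, 0.559, 0.811 and 0.652 in wildtype pools (-0.73). Prpf4b, a kinase of the spliceosome, had 6.31, 6.31, 5.73 and 6.40 in heterozygous and 7.60, 10.1, 9.40 and 7.49 in wildtype pools (-0.47). The others were Pgap1, Vwa5b1, Susd4, Misp, Kcnj5 and Fbp2, from -0.29 to -0.70. Of the 10 genes on each side, 6 of the higher ones were above 0 and 2 of the lower ones were above 0 in the heated pools, where Dennd5b alone passed the adjusted threshold in the same direction.

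Several of these genes have a further probe on the array, and it seldom gave the same value. Bcl9 probe 276061 differed by 0.44, while probes 107062 and 4034 differed by -0.10 and 0.12. Prpf4b probe 383007 differed by -0.03, Wdfy3 probe 351077 by -0.01, Grid1 probe 387079 by -0.08 and Pgap1 probe 327103 by 0.11. Kcnj5 probe 215043 had 0.19, Haghl probe 320087 had -0.15 and 1700066M21Rik probe 400052 had -0.14. Across the 13588 genes, the heterozygous minus wildtype differences of the control and the heated pools, which share no array, had a Pearson r of 0.21, given as a description since genes are not independent replicates.

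Markers of yolk sac endoderm, the membrane tissue that secretes apolipoproteins and albumin-like proteins around the embryo, were the list farthest from the others. Of 27 genes tested, 23 were below 0, against 44.4% of all genes, and the median was -0.44 in the control bath and 0.71 in the heated pools, so the direction was not the same in the 2 baths. Apoa2, an apolipoprotein of high-density lipoprotein, had 7.46, 5.01, 3.45 and 3.14 in heterozygous pools and 4.16, 11.6, 9.10 and 8.82 in wildtype pools. Hnf4a, the nuclear receptor that governs endoderm genes, had 0.617, 0.517 and 0.404 in heterozygous pools A to C and 0.720, 0.937, 0.690 and 0.816 in wildtype pools. Ttr, the thyroxine carrier transthyretin, had 88.1, 68.6, 46.8 and 43.7 in heterozygous pools and 70.8, 103, 74.0 and 99.4 in wildtype pools. Pools C and D were the lowest for Apoa2 and Ttr, and without them the difference was -0.37 in place of -0.82 for Apoa2 and -0.14 in place of -0.53 for Ttr. The median of the list was -0.13 without C and D, with 19 of 27 below 0, and -0.87 among arrays with over 9000 empty cells. Among arrays with under 9000 it was 0.18, with 2 of 27 below 0, and Apoa2 (0.56) and Ttr (0.13) were above 0. The summed intensity of 22 yolk sac genes ran from 262.6 to 457.9 in heterozygous pools and from 374.1 to 562 in wildtype pools, so the ranges overlapped, and 0 of the 27 passed the adjusted threshold. The part of membrane carried with the embryos in any of the differences above was not tested.

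The other tissue markers had medians closer to that of all genes. Primitive red cell genes had a median of -0.08 over 18 genes, of which 14 were below 0 and 3 had an unadjusted limma p under 0.05, against 2.08% lower of all genes, with summed intensities of 243.2 to 315.3 in heterozygous and 241.8 to 312.3 in wildtype pools; the 3 were Ermap, an erythroid membrane protein (-0.21), Epor, the erythropoietin receptor (-0.43, or -0.01 without C and D) and Aqp8, a water channel (-0.74, or -0.41 without C and D). In the heated pools the median of the primitive red cell genes was 0.08, and Aqp8 differed by 0.71. Heart muscle genes in the control bath had a median of -0.04 and sums of 362.7 to 429.9 in heterozygous and 363.4 to 412.9 in wildtype pools. Mef2c, a transcription factor of the early heart, had 3.37, 2.81, 3.16 and 3.04 in heterozygous and 3.69, 4.24, 3.76 and 3.68 in wildtype pools (-0.31, limma adjusted p = 0.841), while Pln, the phospholamban gene of the cardiac calcium pump, differed by 0.34 the other way. Endothelial genes had a median of 0.03 with nested sums, 131.7 to 133.6 in heterozygous and 121.8 to 136.4 in wildtype pools. Of the 20 with 4 values on each side, 4 were higher and 0 lower without overlap, against 2.6% and 1.23% of all genes. Vwf, the von Willebrand factor of endothelium and platelets, had 2.26, 2.49, 2.54 and 2.31 in heterozygous and 1.72, 1.45, 1.89 and 1.66 in wildtype pools (0.52). Etv2, a transcription factor of early endothelium, went the other way with overlapping ranges, 0.644, 0.812, 0.515 and 0.473 in heterozygous and 0.729, 0.763, 0.953 and 0.834 in wildtype pools. Its difference was -0.45, or -0.18 without C and D. Trophoblast and decidua genes had a median of -0.06 and immune genes of -0.08, with overlapping sums. Of the Y-linked genes, Eif2s3y had 3.37, 6.73, 2.92 and 10.8 in heterozygous and 4.50, 9.48, 13.3 and 3.77 in wildtype pools, so the values overlapped and spread widely within both genotypes. Kdm5d and Uty, which was dim, overlapped as well, with differences of -0.23 and 0.29. Usp9y did not overlap, with 2.09, 2.02, 1.96 and 2.10 in heterozygous and 2.26, 2.33, 2.50 and 2.48 in wildtype pools (-0.23, limma adjusted p = 0.841). It is among the 32 probes ordered over the genotypes.

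Gene lists of processes tied to p53 or to this stage, apart from the replication-dependent histones, had medians near that of all genes. Single members nevertheless split with pools C and D. Of these members, Mcm7, H2ax, Dvl1 and Hsf2 were picked after their values were seen. The 44 genes of G1/S and replication tested had a median of 0.08 and the 38 of DNA repair 0.08, against 0.02 for all genes, with 0 past the adjusted threshold in either. At an unadjusted limma p under 0.05, 2 of the 44 and 4 of the 38 were higher and 0 lower, against 3.95% and 2.08% of all genes. Pole, the catalytic subunit of DNA polymerase epsilon, had 22.7, 21.5, 22.6 and 21.8 in heterozygous and 18.7, 18.2, 15.8 and 19.4 in wildtype pools (0.30, limma adjusted p = 0.841). The lowest members of these lists split the heterozygous pools: Mcm7, a subunit of the replicative helicase, had 24.97, 26.7, 6.92 and 8.56 in heterozygous and 23.4, 20.9, 18.1 and 24.7 in wildtype pools. H2ax, the histone variant phosphorylated at DNA breaks, had 50.8, 50.8, 9.46 and 14.6 in heterozygous and 42.4, 36.4, 35.8 and 33.4 in wildtype pools. Their differences were -0.62 for Mcm7 and -0.59 for H2ax, and 0.25 and 0.45 without C and D. Apoptosis genes had a median of 0.00 and neural tube closure genes of 0.06; Celsr1, a planar polarity cadherin, had 2.67, 2.37, 4.10 and 3.80 in heterozygous and 2.19, 2.11, 2.27 and 2.45 in wildtype pools, high in C and D (0.48, or 0.16 without them). Dvl1, a transducer of Wnt signals, had a difference of -0.50, or 0.11 without C and D. Pax3, a transcription factor of the dorsal neural tube, had 6.71, 6.28, 5.90 and 6.27 in heterozygous and 7.33, 6.96, 8.13 and 7.67 in wildtype pools (-0.26). Heat shock genes had a median of 0.03. Hspa9, the mitochondrial Hsp70, differed by 0.27, and Hsf2, a heat shock factor, by -0.50, or 0.16 without C and D. The 8 replication-dependent histone genes tested were all below 0, against 44.4% of all genes. Their median was -0.23, and 0 passed the adjusted threshold. H1f4, a linker histone, had 1.31, 1.31, 1.07 and 0.989 in heterozygous and 1.28, 1.53, 1.68 and 1.54 in wildtype pools. C and D were the lowest for H1f4, whose difference was -0.37, or -0.20 without them, and the median of the list was -0.09 without C and D.

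Imprinted genes had a median of 0.05 over 22 tested, with a wide spread. Rian, a long non-coding RNA of the Dlk1-Meg3 domain on chromosome 12, had 9.01, 20.02, 11.2 and 21.2 at probe 33068 in heterozygous pools and 9.33, 8.10, 8.24 and 8.76 in wildtype pools. Pools B and D were high and pools A and C near the wildtype range, so these values did not follow the split of A and B from C and D. The difference was 0.74 in the control bath (limma adjusted p = 0.841) and 0.79 in the heated pools (limma adjusted p = 0.164). Rian probe 360092 repeated this with 5.18, 11.7, 5.50 and 10.5 in heterozygous and 5.55, 3.31, 3.60 and 3.84 in wildtype pools, but the third probe, 400053, had 4.03, 2.76, 1.14 and 1.60 in heterozygous and 2.81, 3.33, 3.86 and 3.09 in wildtype pools. Kcnq1ot1, the antisense RNA that silences its imprinted domain, had 5.67, 5.41, 5.99 and 5.38 in heterozygous and 4.85, 3.90, 3.85 and 3.95 in wildtype pools (0.45, limma adjusted p = 0.841). After heat the Kcnq1ot1 difference was -0.46 (limma adjusted p = 0.264). DENN domain genes, the family of Dennd5b, had a median of 0.07 over 19 tested; Dennd1c differed by 0.28 and Dennd6b by 0.28, and neither passed the adjusted threshold.

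**Figure D5:**
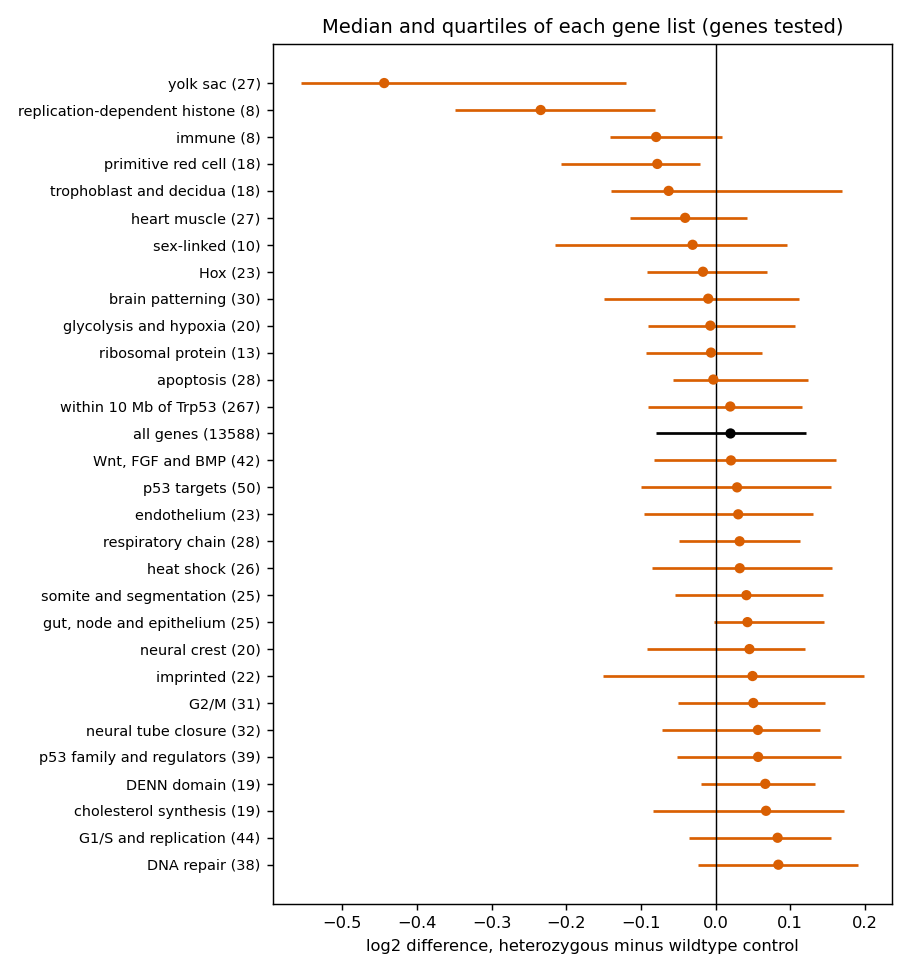
Median (point) and quartiles (line) of the log2 difference, heterozygous minus wildtype control, for each gene list, with the number of genes tested in brackets and all 13588 genes in black. Yolk sac lies farthest to the left at -0.44, followed by the replication-dependent histones at -0.23, and the other medians lie close to that of all genes.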

How the data were processed

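RNA of whole-embryo pools was labelled with biotin, detected with Alexa-647 streptavidin and read on CodeLink arrays of 1 colour, per the labels' protocols. The deposited values are linear intensities, 1 column per array; no source used here names the scanner, background correction or normalization, and control columns hold empty cells, mostly of dim or very bright probes. Empty cells, and cells coded -9999, were treated as missing. Values under an array's 5th percentile were set to it, and log2 was taken. Quantile normalization was built on the 18702 probes that are complete over the 23 arrays and applied to the others by interpolation. limma 3.58.1 (R 4.3.3) fitted 6 group means to all 23 arrays with an intensity trend in the variance, and p-values were two-sided and adjusted by Benjamini-Hochberg over 24147 probes. The number of arrays limits the precision. The labels do not say whether pools shared litters, so p-values measure only the spread between these pools. Of the probes, 21615 have 1 symbol in GEO's platform annotation, 21487 of them updated by gene ID (RefSeq, GRCm38.p6); a gene is given by its brightest probe over the 8 arrays. Medians and counts of a list are descriptions with no test.

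The members, gene lists and the rule for named genes were chosen with earlier results of these data known. Named are probes past the threshold, and the 10 of smallest p in each direction whose pools do not overlap. The rule also takes a p53 panel with sex markers, the 2 of smallest p in each list, and other probes of such genes. Not all of these are given in the text, and some lists are shown by other members. Genes outside the rule are ordered over the genotypes without overlap, or were chosen after their values were seen. The latter include Mcm7, H2ax, Dvl1, Hsf2 and Epor. They also include Slc19a2, Dcxr and Olfr551, which passed the threshold in another comparison or setting. The scripts were tested on simulated data. Alternatives covered normalization, floor, filter, arrays fitted, weights, a replicate block, each array left out and, chosen after seeing the data, sets of arrays by profile and by empty cells.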

Additional observations from a re-analysis of the deposited data

Results flagged for a closer look

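In 9 of 192 groups of 4 pools of the named probes, 1 pool lay far from the other 3 (Dixon's test at the 95% level, which by chance flags about 1 in 20 groups, 9.6 here). Among heterozygous pools these were Barhl2 in pool A (0.515), Prpf4b in pool C (5.73), Pln, the phospholamban gene, in pool C (1.75) and Plk2 in pool B (9.59). Among wildtype pools they were Mef2c in pool B (4.24), Kcnq1ot1 in pool A (4.85), Aldh1a2, an enzyme of retinoic acid synthesis, in pool C (7.06), Cd14, a monocyte marker, in pool A (0.890) and 1700066M21Rik probe 400052 in pool A (3.22). The values are intensities in relative units.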

How the results depend on the processing

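The count of 1 probe past the threshold was the same in 16 of 19 other settings, not counting those chosen after seeing the data, and leaving out each of the 8 arrays in turn gave 1 every time. It was 2 with quantile normalization over all cells, empty ones included (with Olfr551, an olfactory receptor gene, 0.74). With 12 or with 8 arrays in the fit it was 0, for a cause that was not tested. In those fits 1968 and 1536 probes had an unadjusted p under 0.05. The count past the threshold was 25 (12 higher, 13 lower) among arrays with over 9000 empty cells, and the cause was not tested. Those with under 9000 set 2 heterozygous pools against 1 wildtype pool, too few for a count. Without heterozygous C and D the count was 1, a probe lower in heterozygous pools and so not Dennd5b. Dennd5b probe 51041 ran from 0.92 to 1.17 over all alternatives, its adjusted p from 3.19e-05 to 0.0134 with 1 array left out. Leaving out 1 array moved the count at an unadjusted p under 0.05 between 675 (without wildtype B) and 2296 (without wildtype A), and it was 1053 with median centring and 2259 with array weights. The median of the p53 targets was 0.11 with quantile normalization over all cells, and 0.0148 to 0.0583 with 1 array left out. In a check of pairing, same-letter heterozygous and wildtype pools correlated at 0.46, -0.313, 0.221 and 0.124 for A to D. This is a different measure from the array correlations, which were 0.9959, 0.9842, 0.9811 and 0.9863. Heterozygous B with wildtype A had 0.464, and the signs followed the split of A and B from C and D. These values therefore cannot show whether the letters pair the pools. A replicate block gave 1 call and 1419 probes at an unadjusted p under 0.05. The p53 target median was 0.03 under the block.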
